A study of Mus musculus with 62 samples.

Results

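The chromatin marks at 10 genes of the neuromuscular junction were followed through mouse skeletal muscle. They were Chrna1, Chrnb1, Chrnd, Chrne and Chrng, which encode the subunits of the muscle acetylcholine receptor, Musk, Lrp4, Dok7 and Rapsn, which encode the proteins that cluster this receptor, and Colq, which encodes the collagen tail of acetylcholinesterase. The genes were chosen for these roles and not for a measured value. Their regions were all peaks to which the study's annotation gave one of the 10 symbols as the nearest gene, in 16 peak lists of the histone marks H3K27ac and H3K4me2 and in 4 lists of regions whose H3K27ac differed with exercise or with a Pgc1a transgene. This gave 321 of 601616 listed regions, for 10 of the 19220 genes named in these lists.

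The acetylcholine receptor converts acetylcholine released by the motor nerve into depolarization of the myofiber. Agrin from the nerve binds LRP4, LRP4 activates the receptor tyrosine kinase MuSK, DOK7 is the adaptor that MuSK requires, and rapsyn anchors the receptors beneath the nerve ending. The fetal gamma subunit is replaced by the epsilon subunit after birth, and receptor genes are transcribed in adult muscle mostly by the few nuclei that lie under the synapse. H3K27ac marks active promoters and enhancers, and H3K4me2 marks promoters and enhancers whether active or poised. In a whole muscle, fewer marked nuclei and less mark per nucleus cannot be told apart.

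Each mark was profiled by ChIP-seq in 16 libraries, 2 for each of 8 groups of mice, C57BL/6 in the labels and, for the purchased wild type males, C57BL/6J in the study's methods. The first 4 groups were muscles of sedentary wild type males bought at 7 to 8 weeks of age, their age at harvest not being given in the sources used here, namely extensor digitorum longus (EDL), quadriceps (Quad), soleus (Sol) and diaphragm (Dia). The other 4 groups were all quadriceps, from wild type mice with 4 weeks of voluntary wheel running begun at 8 weeks of age and harvested 4 to 6 hours after the last bout (Ex), from their sedentary wild type controls (Sed), from male mice with a Pgc1a transgene driven by the muscle creatine kinase promoter (mTg) and from their sedentary wild type littermates (Wt). A quadriceps library came from 1 animal, whereas an EDL, Sol or Dia library pooled muscles of 3 animals. The creatine kinase promoter drives the transgene in myofibers.

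Libraries held 6.41 to 24.2 M tags, with a median of 19.5 M. Of 5 myofiber marker genes, 3 to 5 had an H3K27ac peak in each group, and the strongest peaks of those that did had a median percentile of 80.3 in Ex, 88.0 in Sed and 94.3 to 97.9 in the other 6 lists. Sox10, which defines Schwann cells, had no annotated peak of either mark in any group, while 2 to 4 of the 5 Schwann cell markers had an H3K27ac peak. All 3 endothelial and all 3 macrophage markers had an H3K27ac peak in every group. The H3K4me2 libraries labelled Wt and mTg went against H3K27ac at some regions. Of 1828 regions whose H3K27ac was higher in mTg, 97.3% had an H3K27ac peak in the mTg list and 54.3% in the Wt list, but 20.8% had an H3K4me2 peak in the list labelled mTg and 63.8% in the list labelled Wt. At 844 regions whose H3K27ac was lower in mTg, the H3K4me2 shares were 25.4% in the list labelled mTg and 30.9% in that labelled Wt. These lists held 27527 and 46944 H3K4me2 peaks. The shallowest library of all, at 6.41 M tags, was H3K4me2 replicate 1 labelled mTg, and the part of depth in these shares was not tested. The libraries are called by their labels, and H3K4me2 counts over all groups at the main peak threshold are given with and without them.

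Levels are the deposited log2 tag values minus the log2 of the region's width in kb, called log2 level per kb, and a percentile is the rank of a region's mean level among all peaks of its own list. Every list was normalized on its own, so levels of different lists were set against each other at matched regions after each library had been centred. The correlations given last also cross lists and use levels centred on each list's median. With 2 libraries in each group an exact permutation test cannot give a p below 0.333, and no test was run between lists.

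The sequences that the results below refer to are the start regions of 4 genes and 3 accessible distal sites. The start regions are windows of 300 bases over the start of transcription from the RefSeq table of build GRCm38.p6, which holds 6 of the 10 genes. Chrnd, Lrp4, Rapsn and Colq were not in it. Capitals mark words that were searched on both strands, namely the N-box CCGGAA, a site of ETS factors such as GABP that act in synaptic transcription, and the E-boxes CAGCTG and CACCTG, which bind myogenic basic helix-loop-helix factors. A word found on the other strand is printed as its complement, so CACCTG can appear as CAGGTG. No matches overlapped.
Chrna1 start, chr2:73580289-73580588, minus strand: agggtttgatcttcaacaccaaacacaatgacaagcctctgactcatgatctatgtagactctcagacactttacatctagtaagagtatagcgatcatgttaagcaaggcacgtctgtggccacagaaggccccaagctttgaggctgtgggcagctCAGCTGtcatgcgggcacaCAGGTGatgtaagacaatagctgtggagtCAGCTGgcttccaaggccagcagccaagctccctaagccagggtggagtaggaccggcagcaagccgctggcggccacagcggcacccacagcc
Chrng start, chr1:87205561-87205860, plus strand: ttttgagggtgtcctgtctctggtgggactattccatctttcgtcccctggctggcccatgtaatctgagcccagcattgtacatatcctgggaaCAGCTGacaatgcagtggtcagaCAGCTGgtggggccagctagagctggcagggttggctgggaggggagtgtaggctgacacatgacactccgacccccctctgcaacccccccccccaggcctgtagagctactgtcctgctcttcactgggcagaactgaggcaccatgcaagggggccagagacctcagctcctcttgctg
Chrne start, chr11:70619145-70619444, minus strand: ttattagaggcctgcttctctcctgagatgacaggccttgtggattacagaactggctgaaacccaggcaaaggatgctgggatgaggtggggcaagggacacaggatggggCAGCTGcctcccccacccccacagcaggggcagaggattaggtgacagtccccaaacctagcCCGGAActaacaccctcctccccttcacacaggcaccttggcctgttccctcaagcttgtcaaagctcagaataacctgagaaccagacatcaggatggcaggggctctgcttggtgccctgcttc
Musk start, chr4:58285712-58286011, plus strand: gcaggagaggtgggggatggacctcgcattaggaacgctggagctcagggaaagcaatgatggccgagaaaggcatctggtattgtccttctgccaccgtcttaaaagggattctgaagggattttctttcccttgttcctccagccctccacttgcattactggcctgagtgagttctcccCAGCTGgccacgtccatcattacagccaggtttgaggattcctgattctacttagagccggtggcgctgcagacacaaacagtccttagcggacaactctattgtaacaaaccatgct
Positions are those of the first base of a word, counted from the start of transcription. The Chrne start held the only N-box of the 7 RefSeq start windows of these genes (Dok7 has 2 windows), at -76, with an E-box CAGCTG at -138. Chrna1 had 3 E-boxes, at -92, -73 and -44, and Chrng had 2, at -155 and -132. Musk had 1 E-box, at -68, and Chrnb1 had 1, at -29. Neither Dok7 window held any of these words. Over 32851 RefSeq start windows of the same length, 14.9% held the N-box, 16.3% held CAGCTG and 20.2% held CACCTG.

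The 3 distal sites were accessible in ATAC-seq of control quadriceps and are given on the plus strand of the same build. They lie in the Chrna1, Chrne and Musk regions described below.
Chrna1 distal site, chr2:73584685-73584879: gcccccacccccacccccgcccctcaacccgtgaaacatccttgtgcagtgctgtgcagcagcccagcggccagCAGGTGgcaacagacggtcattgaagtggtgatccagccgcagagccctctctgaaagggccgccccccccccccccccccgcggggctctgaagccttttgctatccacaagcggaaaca
Chrne distal site, chr11:70622082-70622276: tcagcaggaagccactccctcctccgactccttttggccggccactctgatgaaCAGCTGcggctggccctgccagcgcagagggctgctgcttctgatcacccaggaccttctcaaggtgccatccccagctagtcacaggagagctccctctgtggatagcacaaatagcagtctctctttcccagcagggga
Musk intron 9 site, chr4:58351222-58351416: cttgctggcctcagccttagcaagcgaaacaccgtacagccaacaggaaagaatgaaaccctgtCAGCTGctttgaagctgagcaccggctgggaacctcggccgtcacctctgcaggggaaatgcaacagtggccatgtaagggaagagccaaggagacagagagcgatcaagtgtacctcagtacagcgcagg
Each of these 3 sites held 1 E-box and no N-box. Among all 18 accessible sites within the H3K27ac regions of these genes in Quad, 9 held an E-box and 1 held an N-box, the latter at the start of Chrne. Over all 44911 accessible sites, 9.43% held the N-box, 21.1% held CAGCTG and 11.0% held CACCTG. The 9 sites with an E-box count either word, and the share of all sites with either word was not computed.

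Of the 10 genes, 6 had an H3K27ac peak in all 8 groups, namely Chrna1, Chrnb1, Musk, Lrp4, Dok7 and Rapsn. Of all 16880 genes with an H3K27ac peak in any group, 56.4% had one in all 8, and the share of the junction genes was near this background. The same 6 genes had an H3K4me2 peak in all 8 groups, against 70.8% of 18565 genes. Without the lists labelled Wt and mTg, 8 junction genes had an H3K4me2 peak in the other 6 groups, with Chrne and Colq added, against 74.2% of the same 18565 genes. These are the genes with an H3K4me2 peak in any group, and Chrng, which had none, is not among them. At a stricter adjusted p-value of 0.001 for a peak, each mark kept 5 of the 6 genes, with Chrna1 lost for H3K27ac and Rapsn for H3K4me2.

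**Figure D1:**
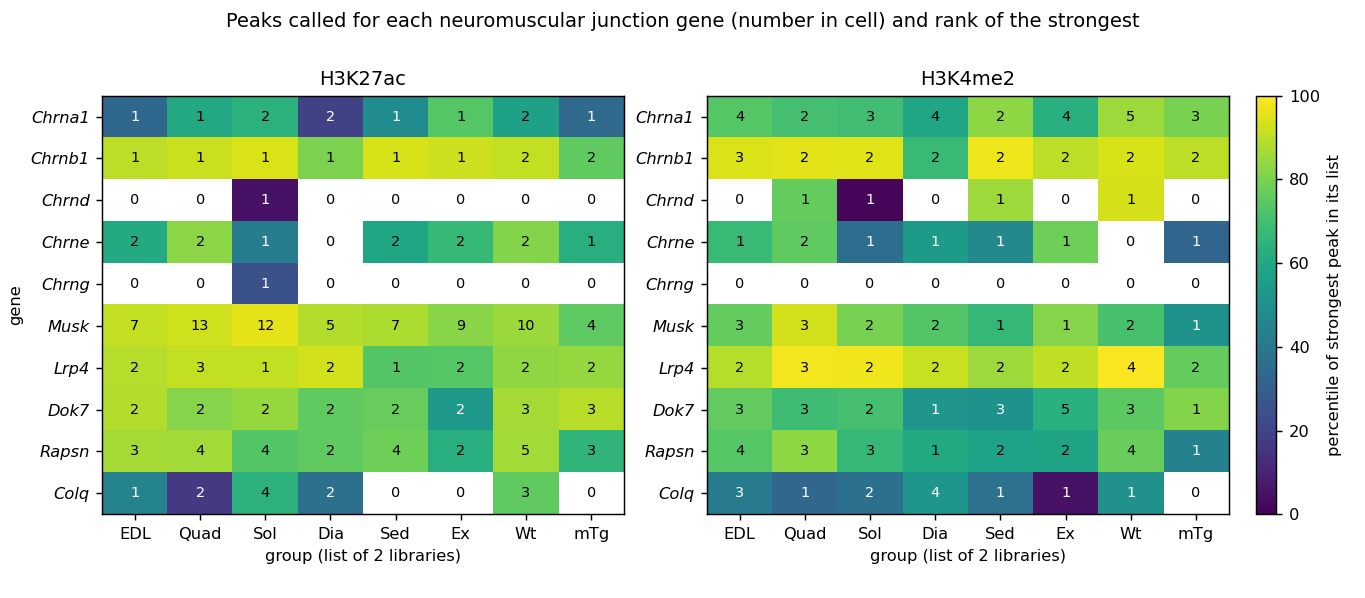
Number of peaks (digits) and percentile of the strongest peak in its list (colour, white where no peak was called) for the 10 genes (rows) in the 8 groups (columns), for H3K27ac on the left and H3K4me2 on the right. For H3K27ac, the strongest peak of Chrnb1, Musk, Lrp4, Dok7 and Rapsn ranks high in most lists, while Chrnd and Chrng have a peak in Sol alone.

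When overlapping peaks of the 8 groups were merged, the junction genes had 37 H3K27ac regions and 29 H3K4me2 regions. Of the 37 H3K27ac regions, 8 (21.6%) were called in all 8 groups, against 21.8% of all merged H3K27ac regions, and 11 were called in 1 group. Of the 29 H3K4me2 regions, 7 were called in all 8 groups, against 25.7% of all, and 4 were called in 1 group. The shares of all merged regions called in 1 group were not computed, so these 2 counts have no background. Without the lists labelled Wt and mTg, 8 of 28 H3K4me2 regions were called in the other 6 groups. The 8 H3K27ac regions found in all groups lay at 5 genes, with 3 at Musk, 2 at Dok7 and 1 each at Chrnb1, Lrp4 and Rapsn. Between 13.8% and 26.3% of the H3K27ac peaks of these genes lay within 1 kb of a start in a list, compared with 18.4% to 27.2% of all peaks.

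Among the receptor subunit genes, Chrnb1, the gene of the beta subunit found in fetal and adult receptors, ranked highest in every H3K27ac list. Its start region had an H3K27ac peak in every group, with a percentile of 75.5 in mTg and 80.4 to 94.4 in the other lists. In Quad the peak (chr11:69795268-69796402) had levels of 7.25 and 7.25 in the 2 libraries, and in Sol (chr11:69795263-69796275) it had 7.50 and 7.34. H3K4me2 covered the same start in all groups, at percentiles of 67.8 in Dia and 89.9 to 97.5 elsewhere. The accessible site in this region had a signal of 37, percentile 99.0 of all accessible sites. The annotation placed 5 of the 8 start peaks at the transcription end of Fgf11, a neighbouring growth factor gene, so that this region cannot be assigned to 1 gene alone.

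Chrna1 encodes the subunit that holds most of the acetylcholine-binding site. Its main H3K27ac region lay about 5 kb upstream of the start and was called in every group but mTg. In Quad (chr2:73584733-73585876, -4966 bases from the start) its levels were 5.93 and 5.96, percentile 60.4, and in Sol they were 6.21 and 6.32, percentile 64.1. In Dia the levels were 5.48 and 5.11, percentile 17.2, over a wider peak at -6051 bases that was not matched to the Quad peak. H3K4me2 was called over this region in all 8 groups, at percentiles of 58.7 to 85.3. Over the start, where the 3 E-boxes lie, H3K27ac was called in Sol, Dia and mTg, and in Wt it was called in the adjoining intron 1. The Sol peak at the start had levels of 5.87 and 5.76, percentile 46.5, whereas the Quad, EDL, Sed and Ex lists had no peak there. In mTg this was the gene's only H3K27ac peak, with levels of 4.85 and 4.41. H3K4me2 was also called 12.9 kb from the start, in intron 7, in 5 groups, and 18.8 kb from the start in 7 groups, with no H3K27ac peak at either place in any group.

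Chrne, the adult subunit gene, had 2 H3K27ac regions. The upstream one, at -2952 bases in Quad (chr11:70621412-70622880), was called in all groups but Dia, and the one over the start was called in EDL, Quad, Sed, Ex and Wt. Upstream levels were 6.96 and 6.59 in Quad, 6.31 and 6.61 in EDL, and 5.77 and 5.66 in Sol. The Quad list ranked the region at percentile 82.5 and the Wt list at 81.4, while the Sed, EDL, mTg and Ex lists ranked it between 59.2 and 66.8 and the Sol list at 42.4. Among the 7 lists that held it, Sol therefore ranked it lowest. Over the start, levels were 5.63 and 5.14 in Quad and 4.81 and 4.67 in Ex, where the peak ranked at percentile 6.11. H3K4me2 at the upstream region was called in all lists but the one labelled Wt, and at the start in Quad alone. Dia had no H3K27ac peak at Chrne although H3K4me2 was called upstream there, with levels of 6.49 and 6.20.

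Chrnd and Chrng, the genes of the delta and the fetal gamma subunit, lie side by side on chromosome 1, and both had an annotated H3K27ac peak in Sol alone. The Chrnd peak (chr1:87190618-87191118), in intron 1 and 271 bases past the start, had levels of 4.59 and 4.55 and ranked at percentile 5.03 of the Sol list. H3K4me2 was called at the same place in Sol alone, at percentile 1.38. The peak annotated to Chrng lies at -6967 bases and inside the 3' UTR of Chrnd. No peak of either mark was annotated at the start of Chrng, whose sequence with 2 E-boxes is shown above. A stronger H3K4me2 region, at -3.6 kb from Chrnd, lies in exon 10 of Prss56, a protease gene. It was called in all 8 groups and annotated to Chrnd in 3 of them, so it entered the counts of merged and matched regions although it may belong to Prss56.

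**Figure D2:**
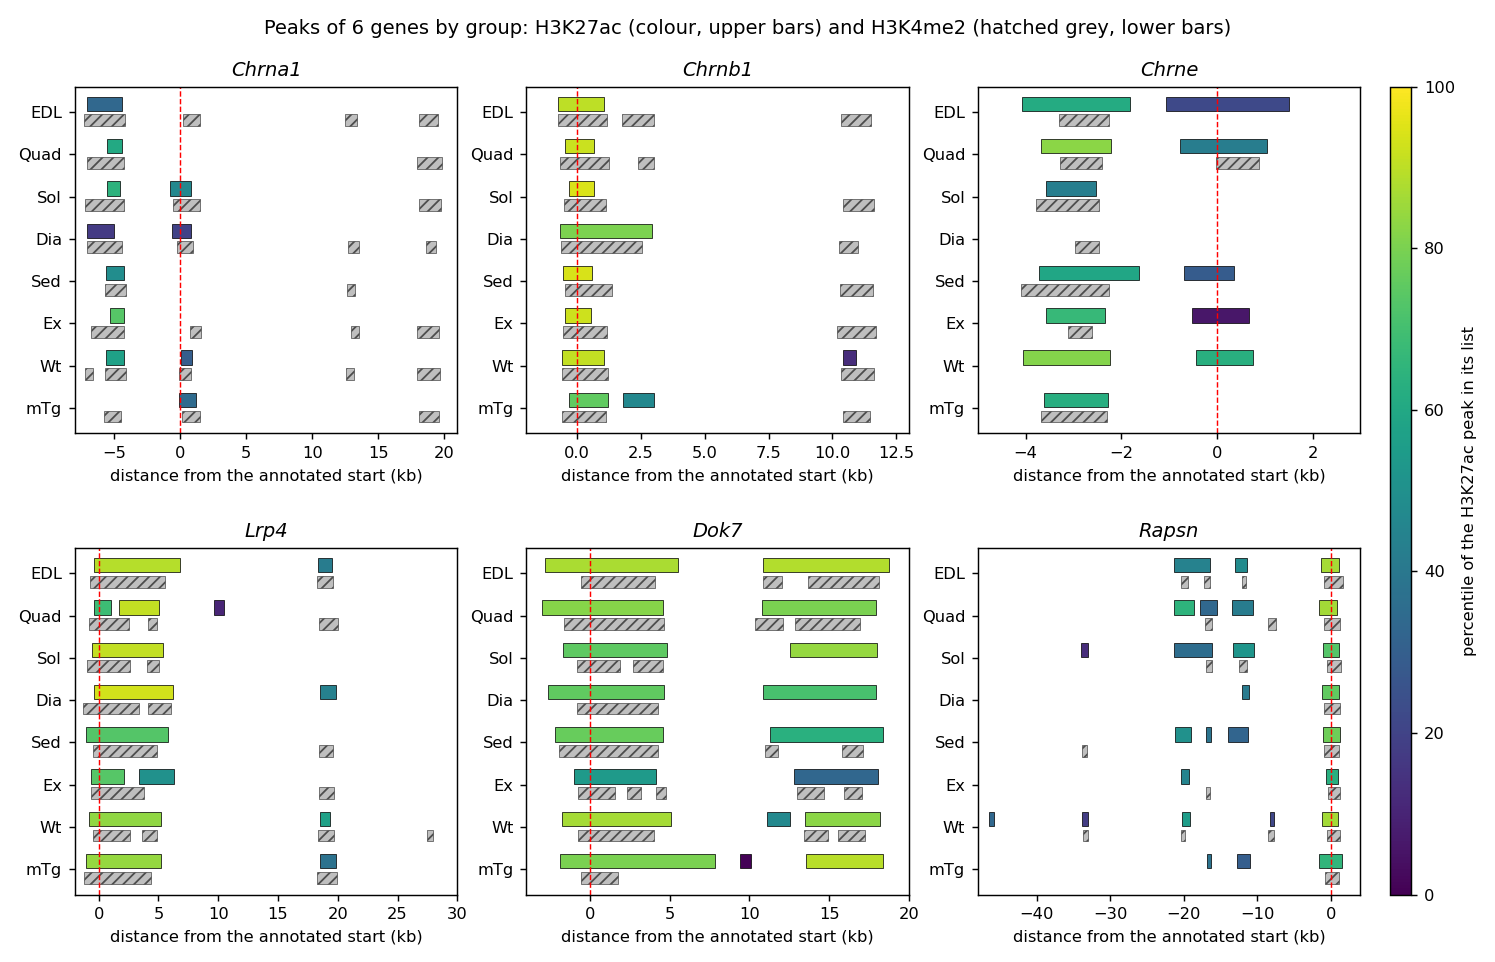
Peaks of 6 genes by distance from the annotated start (horizontal axis, kb, start at the dashed line) in the 8 groups (rows), with H3K27ac as the upper bars coloured by percentile in their list and H3K4me2 as the lower hatched bars. In the H3K27ac bars, Chrna1 shows the region about 5 kb upstream in all groups but mTg, Chrne the region about 3 kb upstream in all but Dia, and Dok7 and Lrp4 broad H3K27ac domains in every group.

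Among the clustering genes, Dok7 and Lrp4 carried broad H3K27ac. Dok7, the adaptor gene, had 2 domains in all 8 groups, 1 over the start and intron 1 and 1 in intron 3. The domain at the start was 5.16 to 9.71 kb wide, at percentile 92.7 to 99.2 of width in its list, and the intron 3 domain was 4.72 to 7.90 kb wide. In Quad their levels were 6.72 and 6.77 at the start (chr5:35054092-35061687) and 6.37 and 6.95 in intron 3 (chr5:35067881-35075015). Levels at the start ranked between percentile 75.2 and 87.2 in 7 lists and at 54.2 in Ex. Those in intron 3 ranked at percentile 33.0 in Ex and between 63.5 and 89.3 elsewhere. H3K4me2 overlapped the start domain in every group but was called in intron 3 near 15.9 kb in 5 groups. The intron 3 domain was the only region of these genes with a MED1 peak in EDL.

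Lrp4, the agrin receptor, had 1 H3K27ac domain over its start and intron 1 in every group, called as 1 peak in EDL, Sol, Dia, Sed, Wt and mTg and as 2 in Quad and Ex. Levels were 7.23 and 7.12 in the stronger Quad peak (chr2:91459259-91462610), 7.24 and 7.19 in Sol (chr2:91456959-91462888) and 7.95 and 7.94 in Dia (chr2:91457158-91463772). Percentiles ran from 73.3 in Sed to 93.2 in Dia. H3K4me2 at the start ranked at percentile 76.3 in the list labelled mTg and between 85.5 and 99.6 elsewhere. A second H3K27ac region around exon 10, about 19.1 kb from the start, was called in EDL, Dia, Wt and mTg.

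Rapsn, the receptor anchor gene, had H3K27ac over its start in all 8 groups. Levels were 7.19 and 6.71 in Quad (chr2:91034053-91036405), 6.63 and 6.41 in Sol (chr2:91034511-91036743) and 6.52 and 5.87 in Ex, where the percentile was lowest at 62.9. Up to 4 further regions in a list lay between -46.1 and -8.01 kb. Those from -46.1 to -16.6 kb lie in introns or the 3' UTR of Celf1, an RNA-binding protein gene, and cannot be assigned to either gene from position alone. The region near -12.0 kb was intergenic and was called in EDL, Quad, Sol, Dia, Sed and mTg at percentiles of 29.5 to 52.3.

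Musk, the kinase gene, had the most regions, with 13 H3K27ac peaks in Quad, 12 in Sol, 4 in mTg and 5 to 10 in the other lists. These counts depend on the list, since the H3K27ac lists held from 33106 peaks in Dia to 49010 in Wt, with 40949 in Quad and 36169 in mTg. They also depend on how peaks were split, as 1 mTg peak of 6.58 kb spanned places that Quad called as separate peaks. Of the 13 merged regions of Musk, 3 were called in all 8 groups, at the start and intron 1, in introns 5 to 7 between 40.8 and 52.8 kb from the start, and in intron 9 at about 64.8 kb. Sol had the highest rank at the start, with levels of 7.82 and 7.26 (chr4:58285435-58290332), percentile 96.0. Quad had its highest rank in intron 9, with levels of 7.34 and 7.25 (chr4:58349476-58352228), percentile 92.9. The region in intron 7 had levels of 6.63 and 7.25 in Quad and 7.78 and 7.32 in Dia. Regions between 21.1 and 33.5 kb, in intron 5, were called in EDL, Quad, Sol, Ex and Wt and not in Dia, Sed or mTg. H3K4me2 was called at the start in all 8 groups, in intron 9 in EDL, Quad, Sol, Dia and the list labelled Wt, and in intron 7 in EDL alone. Musk thus had 13 merged H3K27ac regions but 3 merged H3K4me2 regions.

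**Figure D3:**
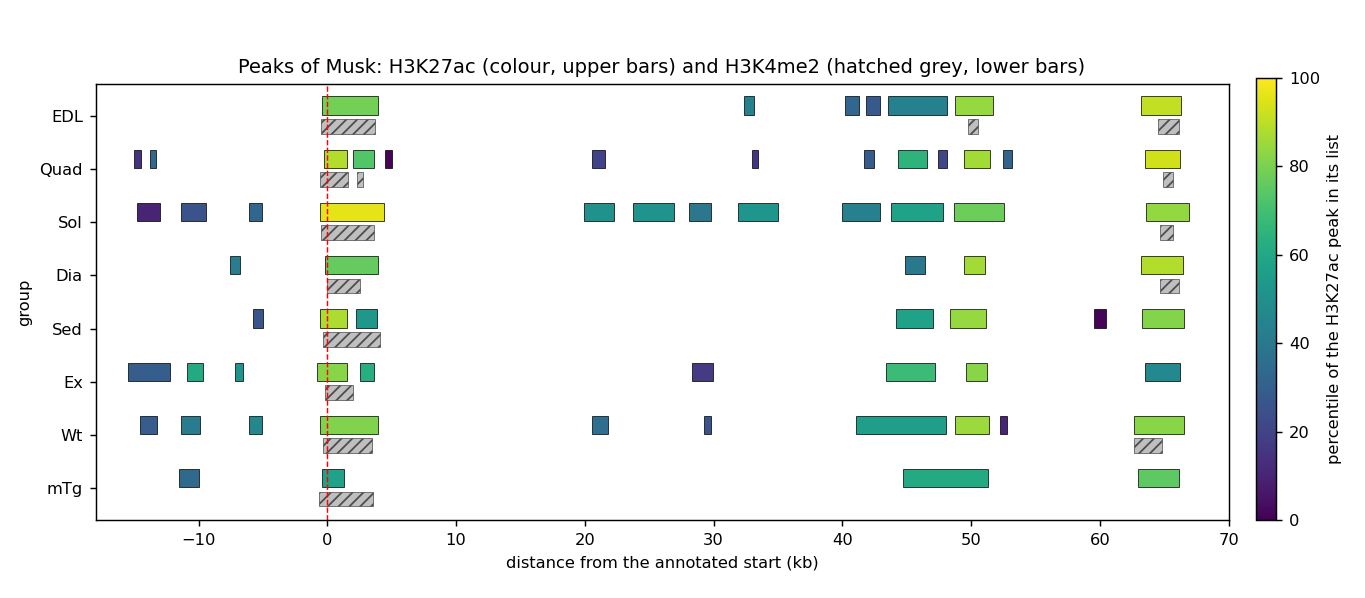
Peaks of Musk by distance from its annotated start (horizontal axis, kb, start at the dashed line) in the 8 groups (rows), with H3K27ac as the upper bars coloured by percentile in their list and H3K4me2 as the lower hatched bars. The start, the region around 46.8 kb and the intron 9 region near 64.8 kb are marked in every group, and the intron 9 bar is darkest in Ex, at percentile 47.1 against 75.3 to 92.9 in the other 7 lists.

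Colq, which anchors acetylcholinesterase in the synaptic cleft, was marked unevenly. It had no H3K27ac peak in Sed, Ex or mTg, 1 in EDL, 2 in Quad and Dia, 3 in Wt and 4 in Sol. Its strongest Quad peak (chr14:31556185-31557435), in intron 1 and 20.6 kb from the start, had levels of 5.22 and 3.93, percentile 16.4. The Sol peak there (chr14:31555256-31558534) had levels of 6.38 and 6.16, percentile 64.3. These 2 peaks differed in width, so they were not matched below. H3K4me2 near the start was called in the 4 muscles and in the list labelled Wt, at percentiles of 21.3 to 50.8.

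To ask whether levels differed between muscles or conditions, regions were matched one to one between lists at a reciprocal overlap of 50%, each library was centred on its median over the matched regions, and a region was counted when the means differed over 2-fold and the libraries of the groups did not overlap. EDL, Sol and Dia were each set against the same Quad libraries. Over the 5 comparisons of both marks, libraries of the 2 groups did not overlap at 53.7% to 71.1% of all matched regions. Non-overlap alone is therefore common. For H3K27ac, 0 of 11 junction regions were counted in EDL (0.648% of all matched regions), 1 of 12 in Sol (3.59%) and 0 of 7 in Dia (4.20%). For H3K4me2 the counts were 0 of 14 in EDL (0.478%), 1 of 12 in Sol (1.84%) and 0 of 10 in Dia (1.55%). Medians over the junction regions were 0.041, -0.090 and -0.055 for H3K27ac in EDL, Sol and Dia, compared with 0.011, 0.048 and 0.038 over all matched regions. For H3K4me2 in Dia, 9 of 10 junction regions were lower than in Quad, with a median of -0.34 against 0.017 over all. Over all matched regions the 25th and 75th percentiles were -0.20 and 0.23, and the share that was lower was not counted. The Prss56 exon region was 1 of the 9, at -0.037 with overlapping libraries. Peaks of Chrnb1, Lrp4 and Musk were wider in Dia than in Quad, and those of Chrne, Dok7 and Rapsn were narrower. The count thus rests in part on the division by width.

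The region counted in Sol was the Chrne upstream region for both marks. H3K27ac centred levels were 0.67 and 0.27 in Quad and -0.55 and -0.67 in Sol, a difference of -1.08 on the log2 scale or 2.11-fold lower in Sol (SD 0.28 in Quad and 0.083 in Sol, n = 2 each). H3K4me2 centred levels were 0.37 and 0.082 in Quad and -0.89 and -0.79 in Sol, a difference of -1.06 or 2.09-fold lower. All Sol libraries were below all Quad libraries for both marks. Neither count held without Quad replicate 1, where the H3K27ac difference was -0.88, or at a reciprocal overlap of 80%, where these regions were not matched. Without division by width the differences were -1.60 for H3K27ac and -0.53 for H3K4me2. In EDL the same region differed from Quad by -0.64 for H3K27ac, at percentile 2.89 of all differences, but by -0.11 without division by width and by -0.31 without centring. The Sed list, which is also quadriceps of sedentary wild type mice, ranked the region at percentile 59.2 for H3K27ac and 47.2 for H3K4me2, against 82.5 and 75.8 in Quad.

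Per kb and after centring, the other muscle differences stayed below 2-fold. Dok7 was higher in EDL than in Quad at both domains, with differences of 0.51 in intron 3 and 0.37 at the start, with no overlap of libraries. In Sol, Rapsn differed from Quad by -0.44 at its start, by 0.57 near -12.0 kb and by -0.56 near -20.0 kb, again with no overlap. Near -20.0 kb the Sol peak (chr2:91014290-91019449) was wider than the Quad peak (chr2:91014356-91016951). Before division by width, both Sol libraries were above both Quad libraries there. The difference at the start was -0.19 without Quad replicate 1 and -0.69 without Quad replicate 2. In Dia, the Chrnb1 start differed from Quad by -0.65 in H3K4me2, with no overlap and at percentile 3.73 of all differences. The Dia peak was 3.16 kb wide and the Quad peak 1.91 kb, so this difference rests on the division by width. Before that division, the deposited levels of both Dia libraries were above those of both Quad libraries. Lrp4 was 0.34 higher in Dia than in Quad for H3K27ac, a difference that was 1.34, over 2-fold, without division by width and 0.77 without centring.

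With exercise, 1 of 13 matched H3K27ac regions was counted (2.93% of all) and 0 of 9 H3K4me2 regions (0.0972%). It was the intron 9 region of Musk, with centred levels of 0.78 and 0.17 in Sed and -0.36 and -0.74 in Ex, a difference of -1.03 or 2.04-fold lower in Ex (SD 0.44 in Sed and 0.27 in Ex, n = 2 each). Both Ex libraries were below both Sed libraries. The count was 0 without Ex replicate 2 or without Sed replicate 1, and 2 without Sed replicate 2, when the start of Chrne was added. Of the 13 regions, 9 were lower in Ex and 4 were higher. Dok7 differed by -0.73 in intron 3 and by -0.70 at its start. The start of Chrne differed by -0.67 and that of Rapsn by -0.53, each with no overlap of libraries. Such non-overlap was found at 8 of the 13 junction regions and at 56.7% of all matched regions. The Chrna1 region near -4.96 kb was 0.66 higher in Ex, with levels of 5.83 and 6.18 in Sed and 6.57 and 6.46 in Ex, percentile 92.8 of all differences. Its H3K27ac peak was 1.03 kb wide in Ex and 1.40 kb in Sed. H3K4me2 there differed by -0.45, with no overlap and at percentile 4.29, between peaks of 2.52 kb in Ex and 1.58 kb in Sed. The H3K27ac difference thus rests in part on the division by width. For H3K4me2, the deposited levels of both Ex libraries were above those of both Sed libraries before that division, opposite to the sign per kb. The median over the 13 regions was -0.13, against 0.046 over all. The median percentile of the myofiber markers with a peak was 88.0 in Sed (3 of 5 genes) and 80.3 in Ex (4 of 5), that of the endothelial markers was 69.5 and 81.3, and that of the macrophage markers was 11.8 and 31.4. The part of these in the junction values was not tested.

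With the Pgc1a transgene, 0 of 10 matched H3K27ac regions were counted (4.64% of all), and 0 of 9 H3K4me2 regions between the libraries labelled mTg and Wt (0.730%). In H3K27ac, 5 regions were higher in mTg and 5 lower, with a median of -0.039. Dok7 intron 3 was 0.69 higher in mTg, with levels of 5.97 and 6.39 in Wt and 6.99 and 6.67 in mTg. The starts of Rapsn and Chrnb1 differed by -0.62 and -0.44 and the Chrne upstream region by -0.46, each with no overlap of libraries. Such non-overlap was found at 6 of the 10 junction regions and at 63.5% of all matched regions. The Rapsn peak was wider in mTg (chr2:91033973-91037169) than in Wt (chr2:91034366-91036523), so its difference rests in large part on the division by width. The median percentile of the macrophage markers was 53.7 in Wt and 31.3 in mTg, that of the endothelial markers was 71.2 and 51.9, and their part was not tested.

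**Figure D4:**
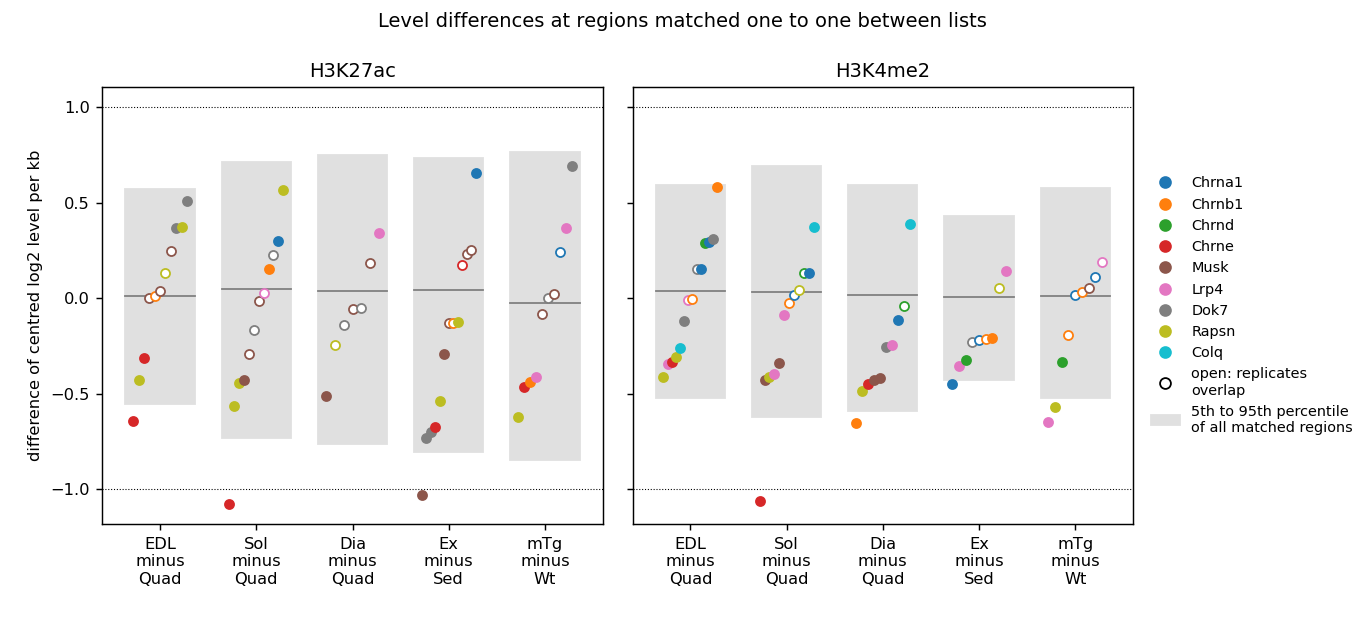
Difference of centred log2 level per kb (vertical axis) at each matched region of the junction genes (points coloured by gene, open where libraries of the groups overlap) for 5 comparisons and both marks, over the 5th to 95th percentile of all matched regions (grey bars, line at the median). The H3K4me2 points at the far right use the libraries labelled mTg and Wt. Chrne lies below the dotted 2-fold line in Sol for both marks, at -1.08 and -1.06, and Musk intron 9 lies below it in Ex, at -1.03.

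The study's lists of changed H3K27ac held 3 junction regions. All 4 libraries of such a list were normalized together, so limma was fitted over each whole list. The study had chosen these regions for differing between the same groups, so the test is not independent evidence of direction. limma pools the spread between libraries over a list, and in the list lower in Ex every region named here had the same SE of 0.21. In that list the p-value thus follows the size of the difference and not the spread of the region's own replicates. The test called 99.7% of the regions higher in Ex, 99.7% of those lower in Ex, 100% of those higher in mTg and 100% of those lower in mTg. Of 22 merged junction regions of Sed and Ex, 1 held a region higher in Ex (0.909% of all merged regions) and 1 held a region lower in Ex (5.43%). Of 32 of Wt and mTg, 1 held a region higher in mTg (3.27%) and 0 held a region lower in mTg (1.51%).

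Musk accounted for both regions that changed with exercise. The intergenic region at -10241 bases (chr4:58275101-58276342) had deposited log2 levels of 5.63 and 5.77 in Sed and 6.18 and 6.38 in Ex. It rose by 0.57 (SE 0.16, limma adjusted p = 0.00202). Centring each library on the median of such a list removes by construction the change that the chosen regions share. It then left this region a difference of -0.05, and 0 of the 382 regions were called. The call was lost without Sed replicate 1 (limma adjusted p = 0.0858), when 0 of the 382 regions of the list were called. It was called as a peak in Ex, Sol, Wt and mTg and in neither Sed nor Quad. The intron 9 region (chr4:58349241-58352495) had levels of 8.72 and 8.22 in Sed and 7.74 and 7.55 in Ex, and fell by 0.83 (SE 0.21, limma adjusted p = 3.82e-04). After the same centring its difference was -0.05, and 0 of the 2280 regions of that list were called. It is the region that held the accessible site with an E-box CAGCTG shown above, in intron 9 of 15. The 2 regions of Musk thus came from lists of opposite direction, and the difference between them was not tested.

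In mTg, a region in exon 6 of 11 of Chrnb1 (chr11:69792943-69794155), 2388 bases past the start, had levels of 4.70 and 4.66 in Wt and 5.12 and 5.32 in mTg. It rose by 0.54 (SE 0.13, limma adjusted p = 2.94e-04). After centring, which again removes the shared change, its difference was -0.26, and 234 of the 1828 regions of the list were called, this one not among them. No other list called a separate H3K27ac peak there, although the Dia peak at the start reached over it and H3K4me2 was called separately there in EDL and Quad. The matched region at the start of the same gene differed by -0.44 in mTg.

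**Figure D5:**
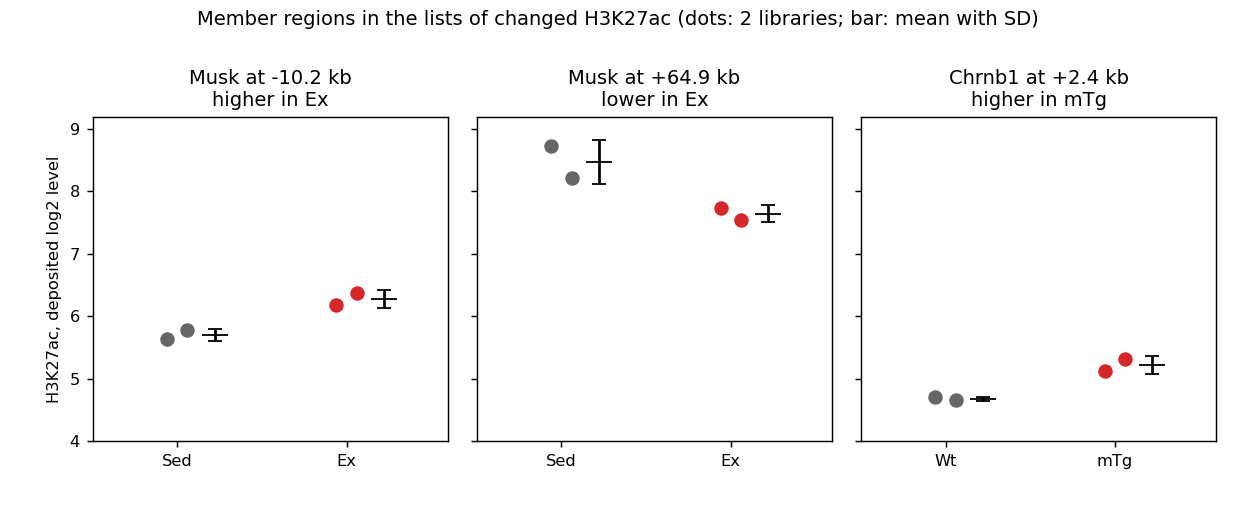
Deposited log2 H3K27ac level (vertical axis, starting at 4) in each of the 4 libraries (dots) at the 3 junction regions found in the lists of changed H3K27ac, with the mean and SD of 2 libraries beside them. In each panel the libraries of the groups do not overlap. Musk at -10.2 kb is higher in Ex, Musk intron 9 is lower in Ex and Chrnb1 exon 6 is higher in mTg.

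Other genes of the junction were looked up in the same way. Of 28 such genes, 20 had an H3K27ac peak in all 8 groups, where 56.4% of all genes with a peak did, and 26 had an H3K4me2 peak, where 70.8% did. The H3K4me2 count was also 26 without the lists labelled Wt and mTg. Nrg1, the neuregulin gene, and Gabpa, an N-box-binding factor gene, had no H3K27ac peak annotated to them in any group. Gabpa had no annotated H3K4me2 peak either. A peak that the annotation gave to a neighbouring gene was not counted, so this does not show that these genes were unmarked. Of the 26 with an H3K27ac peak, 0 were in the list of regions higher in Ex (2.06% of all 16880 genes with a peak) and 6 were in the list lower in Ex (9.32%), with 8 regions. These were Scn4a, the muscle sodium channel gene, Hdac4, a histone deacetylase gene with a role in denervated muscle, Dtna, a dystrobrevin gene, Crk, an adaptor that binds DOK7, Lama5, a laminin gene of the synaptic basal lamina, and Lrtm1. They fell by 0.60 to 0.91, the most at an intron 4 region of Hdac4, with levels of 9.03 and 8.24 in Sed and 7.77 and 7.68 in Ex (limma adjusted p = 1.69e-04). In mTg, 1 gene was in the list of higher regions (8.35% of all genes), Lrtm1, whose 2 regions rose by 1.19 and 1.12. The list of lower regions held 2 genes (3.97%), with 1 region of Hdac4 that fell by 0.72 and 1 of Utrn, the utrophin gene, that fell by 0.52. These counts were not tested.

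Of the 28 H3K27ac regions of the junction genes in Quad, 16 held an accessible site, against 57.2% of all 40949 Quad regions, nearly the same share. The sites fell in 8 genes. Musk had 5 of them, Dok7 and Rapsn 3 each, Lrp4 and Chrne 2 each, and Chrna1, Chrnb1 and Colq 1 each. Signals were 6.77 at Musk intron 9, 7.09 at the Chrna1 site, 10.8 at the upstream site of Chrne and 13.5 at the Dok7 intron 3 site.

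H3K4me2 overlapped 14 of 19 H3K27ac regions of these genes in EDL (71.5% of all regions), 14 of 28 in Quad (64.1%), 14 of 29 in Sol (64.1%) and 10 of 16 in Dia (60.0%). The coactivator subunit MED1, with 1 library in each muscle, was found in 1 of 19 regions in EDL (1.12% of all), 0 of 28 in Quad (3.76%), 0 of 29 in Sol (5.34%) and 1 of 16 in Dia (4.16%). The EDL region was Dok7 intron 3 and the Dia region was the Chrnb1 start, with 2 MED1 peaks. The calcium-dependent factor NFAT, also with 1 library a muscle, was found in 0 of 28 regions in Quad (0.0464% of all) and 0 of 29 in Sol (3.02%). An NFAT peak of Sol lay at chr1:87190066-87190268 next to the Chrnd start, with a score of 18.4, just upstream of the Chrnd H3K27ac peak that was called in Sol alone. The Sol lists also gave Chrnb1 an NFAT peak, with a score of 16.4, and gave Chrnb1 and Rapsn MED1 peaks outside their H3K27ac regions. The Sol NFAT list held 39661 peaks, and the share of all regions with a peak so near was not computed. With 1 library each, these overlaps have no replicate check.

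Over the 16 H3K27ac libraries, the genes whose strongest peak varied most like that of Chrna1 were Nsmce1 (Pearson r = 0.90), Ube2l6 (0.90) and Zfp13 (0.89), and for Musk they were Gata2 (0.85), Rph3al (0.84) and 1700001D01Rik (0.83), among 9525 genes. The strongest peak did not lie at the same place in every list. That of Musk was in intron 9 in EDL, Quad, Dia and mTg, in intron 7 in Ex and Wt and in intron 1 in Sol and Sed, and that of Chrna1 was the upstream region in 6 lists and the one over the start in Dia and mTg, so these values do not follow 1 region. These are descriptions over 16 libraries of 8 groups that share lists, and no p is given.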

How the data were processed

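H3K27ac and H3K4me2 ChIP-seq peak lists of 8 groups with 2 libraries each were used, together with 4 lists of changed H3K27ac. The authors aligned 75-bp single-end reads to mm10 with Bowtie (1.2 in the submitters' notes), called peaks against input with HOMER and DESeq2 over both replicates (2-fold, FDR 0.05) and annotated each to the nearest start. The authors deposited log2 tag values, taken to be their DESeq2-transformed counts, with each list normalized on its own. The deposited p-value columns are adjusted p-values of target over input and, like the log2 fold enrichment columns, served only for stricter peak settings. The authors' HOMER peak score of MED1 and NFAT and the deposited ATAC signal, scaled by total tags, were used as given. Columns of the authors' comparisons between groups were not used, and ATAC and footprint lists not on mm10 were left out.

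Levels were divided by width in kb. Regions were matched between lists one to one at 50% reciprocal overlap (Python 3.11.15, pandas 2.3.3, numpy 2.4.6) and called at 2-fold without overlap of replicates. Changed lists were fitted whole with limma 3.58.1 (R 4.3.3; Benjamini-Hochberg adjusted p under 0.05). Matching was tested on simulated data. Motif words were searched in RefSeq start windows and in GRCm38.p6. Libraries held 6.41 to 24.2 M tags, which limits weak regions. Quadriceps libraries came from single animals, so p-values rest on the spread between these few libraries, pooled over a list by limma. Replicates correlated at a Spearman coefficient of 0.964 to 0.991 and shared no values. Regions named in full were each member's strongest H3K27ac peak in Quad and in Sol, every member region in the changed lists and every one over 2-fold apart without overlap of replicates. Other genes of the pathway were named where they were in the changed lists, and the 3 genes most like Chrna1 and Musk by Pearson correlation. Further regions were chosen after their values were seen. Alternatives were a stricter overlap, no division by width, no centring, a replicate block, stricter peaks and each replicate left out. The members, the pathway and marker lists and the rules were chosen with earlier results of these data known.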

Additional observations from a re-analysis of the deposited data

How the results depend on the processing

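At a reciprocal overlap of 80%, the counts of regions over 2-fold apart between Sol and Quad were 0 for H3K27ac and 0 for H3K4me2, since fewer regions could be matched. Without division by width, the counts were 2 for Dia against Quad (Lrp4 and Musk) and 5 for Ex against Sed (Dok7, Musk and Rapsn) in H3K27ac. In H3K4me2 they were 1 for EDL (Chrnb1), 0 for Sol and 1 for Dia (Chrne), each against Quad. The Chrne difference between Sol and Quad was then -1.60 for H3K27ac and -0.53 for H3K4me2, and the cause was not tested. Leaving out 1 replicate gave counts of 0 to 1 for Sol against Quad in both marks (0 without Quad replicate 1) and of 0 to 2 for Ex against Sed in H3K27ac (0 without Ex replicate 2 or Sed replicate 1). In the changed lists, 2 to 3 regions were called when 1 replicate was left out, and 0 after centring on the list's median, when Musk at -10.2 kb had -0.051 and Chrnb1 -0.26. That centring removes by construction the change a list chosen for 1 direction shares, and it left 0 of 382, 0 of 2280, 234 of 1828 and 35 of 844 regions called over all genes. The sign changed in 1 of 12 matched differences at 80% overlap, 9 of 76 with a replicate left out, 3 of 19 without division by width and 3 of 19 without centring. It changed in 0 of those of at least 0.5, which were 4 of the 19 and 1 of the 12. Other matched differences of at least 0.5 were not checked in this way. Those left out include Rapsn at chr2:91014290-91019449 in Sol (-0.56) and the Chrnb1 start in Dia for H3K4me2 (-0.65). At that Rapsn region both Sol libraries were above both Quad libraries before division by width, opposite to the sign per kb. At that Chrnb1 start the deposited levels of both Dia libraries were likewise above those of both Quad libraries. With the replicate number as a block, all 3 regions stayed called (limma adjusted p = 0.00531 and 2.14e-06 for Musk and 3.72e-04 for Chrnb1). Same-numbered libraries had correlations of 0.144, 0.106, -0.039 and -0.242, so the numbers do not pair them. With crossed numbers, 1828 of 1828 and 844 of 844 regions of the mTg lists were called. Depth limits what the weakest regions can show, and 2 libraries a group allow no exact p below 0.333.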
